A study of Homo sapiens with 12 samples.

Results

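The genes described here are the ZNF genes of the zinc finger clusters at the telomeric end of the long arm of human chromosome 19, in band 19q13.4. They were taken as every deposited symbol made of ZNF and a number whose start on chromosome 19 (GRCh38) lies beyond a fixed base between ZNF473 at 50025714 and ZNF175 at 51571283, which gave 96 genes of 60835 symbols. The choice used name and position only, with no expression value, but it was made with earlier results of these data known. Another 145 ZNF genes lie elsewhere on chromosome 19, 235 lie on other chromosomes, and 438 other symbols share the interval. Just inside the boundary, ZNF175 had log2 fold changes of 0.30 in TRIM28 knockdown and 0.18 in FOXA1 knockdown, and just outside it ZNF473 had -0.15 and -0.40.

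Most human ZNF genes of chromosome 19 encode proteins with a KRAB domain near the start and a row of C2H2 zinc fingers at the end. The fingers read DNA, often within transposable elements, and the KRAB domain binds the corepressor TRIM28, which brings in the histone methyltransferase SETDB1 and heterochromatin proteins. The genes arose by tandem duplication, so neighbours resemble each other, and the gene bodies of many are themselves covered by the silencing mark that TRIM28 helps to lay down. FOXA1, the other factor studied, is a pioneer transcription factor of luminal prostate cells.

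RNA was measured by poly(A) mRNA sequencing in LNCaP, an androgen-sensitive line from a human prostate carcinoma. There were 12 libraries in 4 groups of 3 biological replicates: TRIM28 knockdown with an shRNA against TRIM28, its control shRNA, FOXA1 knockdown with an shRNA against FOXA1, and a second control shRNA group. The 2 control groups hold different libraries. The cell line label reads LACAP, whereas the protocol and design name LNCaP, the titles of the knockdown arms read SH control, and the genotype labels of some replicates carry other numbers after the gene name. How many hairpins were used per gene is not given in the sources used here.

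Library totals were between 12256092 and 15152890 counts, and 94 to 96 members had at least 1 count in each library. TRIM28 itself stood at 32.0%, 28.5% and 13.99% of its control mean in the TRIM28 knockdown and at 87.1%, 89.4% and 86.9% in the FOXA1 knockdown. FOXA1 stood at 47.3%, 43.0% and 70.1% in the TRIM28 knockdown and at 29.2%, 28.6% and 29.2% in the FOXA1 knockdown, and the adjusted p of the smallest of these changes, that of TRIM28 in the FOXA1 knockdown, was 0.00221. All libraries carry the same batch label. Replicate 3 of the TRIM28 knockdown stood apart: the chi-square per degree of freedom of its counts against its own replicates was 20.4 and 22.6, against 2.94 to 5.73 for every other pair within a group. Summed luminal prostate markers were 761 to 853 FPKM in TRIM28 knockdown and 1219 to 1241 FPKM in its control, and 780 to 803 FPKM in FOXA1 knockdown and 1208 to 1234 FPKM in its control. Summed stroma markers spanned 4.81 to 45.1 FPKM in TRIM28 knockdown and 4.50 to 5.41 FPKM in its control, with replicate 3 alone above 5.90 FPKM. Summed basal markers were 0.171 to 1.31 FPKM in TRIM28 knockdown, highest in replicate 3, and 0.169 to 0.238 FPKM in its control, and 1.74 to 2.11 FPKM in FOXA1 knockdown and 0.171 to 0.447 FPKM in its control. Summed endothelial markers were 1.29 to 1.35 FPKM in TRIM28 knockdown and 0.592 to 0.926 FPKM in its control, and 0.490 to 0.812 FPKM in FOXA1 knockdown and 0.578 to 0.955 FPKM in its control. Leukocyte markers summed to at most 0.485 FPKM in any library. The part of these markers in the results was not tested.

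The members fell into 4 blocks where neighbouring starts lie 300 kb or more apart. The first block, ZNF175 to ZNF331 (chr19:51571283-53580269), held 39 genes, and the last, ZNF264 to ZNF446 (chr19:57191500-58481230), held 41. Between them lie ZNF628 to ZNF581 (chr19:55476617-55645623), with 7 genes, and ZNF787 to ZNF835 (chr19:56087366-56671783), with 9. A KRAB pattern was found in the translated GENCODE 29 coding sequence of 81 of the 96 members: 38 of 39 in the first block, 0 of 7 in the second, 6 of 9 in the third and 37 of 41 in the last. The proteins carry 3 to 26 C2H2 fingers, with a median of 12. Median transcript GC was 41.5%, 64.9%, 41.9% and 46.1% in the 4 blocks in chromosomal order, so the short second block is the GC-rich one.

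The stretch between neighbouring fingers, the linker, was compared at the base level among the members, and ZNF genes elsewhere were not searched. The 14 bases most often found at the start of a linker were searched for in all members, and they occurred 201 times in 44 genes. Of these copies, 179 lay in 35 of the 39 genes of the first block, and 8 lay in 4 of the 41 genes of the last. The third block held 14 copies, in 5 of its 9 genes, and the second held 0. ZNF845 held the most, with 16 copies in a protein of 26 fingers. The most frequent linker-coding 21 bases of 4 members of the first, second and last blocks are shown, with the 14 bases in capitals where they occur.
ZNF845: ACTGGAGAGAAACCttacaag
ZNF761: ACTGGAGAGAAACCttacaag
ZNF530: actggagaaaggccttatgag
ZNF628: acgggcgagcggccctaccag
ZNF845 and ZNF761, both of the first block, have the same most frequent linker, as the capitals show. The linker of ZNF530, in the last block, and that of ZNF628, in the second, do not contain the 14 bases. In the third block, not shown, the most frequent linkers of ZNF583 and ZNF470 also start with the 14 bases. Reads that fall on such repeated stretches can match several members. How the authors' counting treated them, and whether it used strand, is not given in the sources used here. An exon of 53 members overlaps another gene in GENCODE 29, for 28 of them on the other strand, so the counts of neighbours and close copies are uncertain to that extent.

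**Figure D1:**
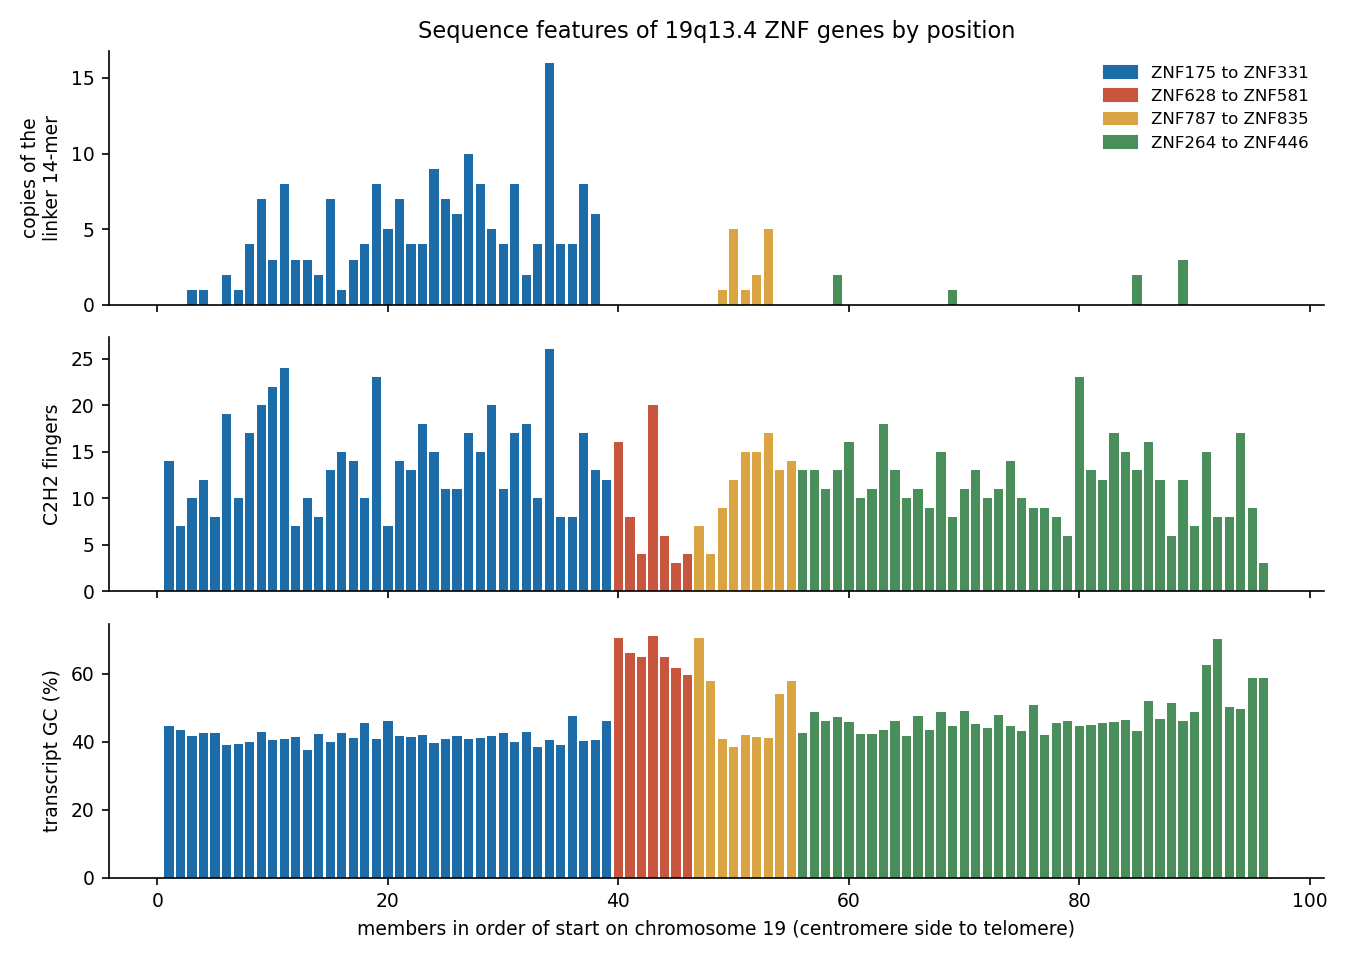
Copies of the linker 14-mer, C2H2 fingers and transcript GC content (percent) of the 96 members, 1 bar per gene in chromosomal order, with colours for the 4 blocks. The 14-mer fills the first block (179 of 201 copies), and the second block stands out by its GC content (median 64.9%).

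Levels were low to moderate. Over the 6 control libraries the 93 members tested in both knockdowns had a median of 3.05 FPKM, against 6.12 FPKM for all 14498 genes tested in both, and 15 members were below 1 FPKM. ZNF787 had the highest level, at 30.8 ± 2.76 FPKM (SD, n = 6 libraries), followed by ZNF581 at 21.4 ± 1.73 FPKM. ZNF160, which represses the TLR4 receptor gene in human intestinal cells, came next at 13.6 ± 0.800 FPKM. The ranges of these 3 over the 6 controls do not overlap. ZNF274, which recruits SETDB1 and TRIM28 to the ends of ZNF genes, was at 9.21 ± 0.63 FPKM, ZNF480 at 8.74 ± 0.763 FPKM and ZNF544 at 8.03 ± 0.786 FPKM, and neighbours among these 3 overlap. The most abundant pair, ZNF787 and ZNF581, carry no KRAB pattern. ZNF665 and ZNF677 were too low to be tested in either knockdown, and ZNF578 was tested in the FOXA1 knockdown only.

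In the TRIM28 knockdown many of the genes rose, in the 2 large blocks above all, and a few between those blocks fell. Of 93 members tested, 39 rose and 5 fell (adjusted p below 0.05 over all genes by edgeR's quasi-likelihood test), where 26.7% of all 14981 tested genes changed, 13.3% upward and 13.3% downward. The median log2 fold change was 0.40 over the members and 0.00 over all genes. Every one of the 39 lay above its controls in all 3 libraries. In all, the knockdown libraries lay wholly above the controls for 54 tested members and wholly below for 8, against 21.8% and 22.1% of all tested genes. In bulk RNA, fewer cells with a transcript and less of it per cell cannot be told apart.

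ZNF264 showed the smallest adjusted p among the rises. Levels of single genes are given in CPM, which are counts adjusted for library size. ZNF264 stood at 84.5, 96.1 and 96.1 CPM in TRIM28 knockdown libraries, against 40.3, 50.5 and 49.1 CPM in their controls (log2 fold change 0.98, SE 0.11, adjusted p = 0.000522). The lowest knockdown library is well above the highest control. ZNF610, with a lower level, stood at 9.71, 8.50 and 5.44 CPM in TRIM28 knockdown libraries, against 2.67, 3.08 and 2.55 CPM in their controls (log2 fold change 1.51, SE 0.26, adjusted p = 0.00283). Replicate 3 is the lowest of the 3 knockdown libraries here, and the groups do not overlap. ZNF761 stood at 39.2, 39.97 and 40.03 CPM in TRIM28 knockdown libraries, against 21.4, 24.7 and 26.3 CPM in their controls (log2 fold change 0.72, SE 0.11, adjusted p = 0.00171). The 3 knockdown libraries of ZNF761 are nearly equal, and all lie above the controls.

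The other large rises were in ZNF135 (1.74 on the log2 scale), ZNF347 (1.03), ZNF528 (0.91), ZNF417 (0.80), ZNF813 (0.80), ZNF28 (0.74) and ZNF606 (0.70). ZNF417 belongs to a pair of near-identical paralogs, with ZNF587, that repress the HERVK family of endogenous retroviruses. ZNF587 itself was not called in the TRIM28 knockdown (0.19) or in the FOXA1 knockdown (0.13). ZNF135 rests on low counts, at 1.73, 2.67 and 2.35 CPM in TRIM28 knockdown libraries, against 0.648, 0.301 and 1.07 CPM in their controls, and it no longer passed when control replicate 1, control replicate 2 or knockdown replicate 2 was left out (adjusted p = 0.0772, 0.0725 and 0.0679). ZNF135 passed the filter on low counts only through its knockdown libraries, so its place among the rises depends partly on that filter. An exon of ZNF135 also overlaps ZSCAN18 on the other strand. The remaining risen members ranged in function from ZNF808, which is needed for human pancreas development and binds MER11 elements (log2 fold change 0.61), to ZNF350, a partner of BRCA1 (0.56).

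All 5 falls were in genes without the KRAB pattern in the 2 middle blocks. ZNF581 stood at 12.2, 8.89 and 15.3 CPM in TRIM28 knockdown libraries, against 24.3, 32.9 and 29.96 CPM in their controls (log2 fold change -1.26, SE 0.19, adjusted p = 0.00196). ZNF787 stood at 38.1, 33.8 and 32.5 CPM in TRIM28 knockdown libraries, against 63.98, 66.9 and 55.5 CPM in their controls (log2 fold change -0.84, SE 0.11, adjusted p = 0.000884). Both sets of libraries lie apart from their controls, and these are the 2 most abundant members. ZNF784 fell by 0.73 on the log2 scale, ZNF628 by 0.56 and ZNF444, a SCAN-domain factor, by 0.45. ZNF628 no longer passed when any 1 of the 3 controls or knockdown replicate 2 was left out (adjusted p of 0.0598 at the lowest), nor did ZNF444 when control replicate 1 (0.0886), control replicate 2 (0.0644) or knockdown replicate 2 (0.0798) was.

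The number of calls depended on single libraries. Leaving out control replicate 1, 2 or 3 of the TRIM28 arm gave 22, 17 and 22 risen members. Leaving out knockdown replicate 3, which stood apart, gave 45 risen and 6 fallen. The rises of ZNF83, ZNF329, ZNF350, ZNF419, ZNF611 and ZNF808 each failed to pass without at least 1 of the 3 controls. Of the 39 rises, 14 held without each library in turn, as did 3 of the 5 falls. Without composition scaling, 63.4% of all called genes were rises, against 49.9% with it, and among called members the share was 89.6%, against 88.6%.

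In the FOXA1 knockdown the same clusters also moved, with more falls. Of 94 members tested, 38 rose and 13 fell, where 52.4% of all 14953 tested genes changed, 26.1% upward and 26.3% downward. The median log2 fold change was 0.20 over the members and -0.02 over all genes. The share that rose (40.4%) is above the background and the share that fell (13.8%) below it, with no test of that difference. The knockdown libraries lay wholly above the controls for 45 tested members and wholly below for 13, against 29.2% of all tested genes in each direction.

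ZNF761 rose with the smallest adjusted p of the 94 tested. It stood at 53.7, 55.02 and 53.5 CPM in FOXA1 knockdown libraries, against 23.01, 24.4 and 24.5 CPM in their controls (log2 fold change 1.18, SE 0.08, adjusted p = 1.14e-13). The level is more than doubled, with almost no spread in either group. An exon of ZNF761 overlaps TPM3P9 on the same strand, so its count may not be its own alone. The neighbours of ZNF761 in the same stretch of the first block rose too. ZNF765, which binds LINE-1 elements in human cells, stood at 36.4, 36.9 and 38.6 CPM in FOXA1 knockdown libraries, against 20.99, 20.3 and 19.3 CPM in their controls (log2 fold change 0.88, SE 0.09, adjusted p = 6.72e-10). ZNF813 stood at 25.2, 26.2 and 27.02 CPM in FOXA1 knockdown libraries, against 11.2, 14.9 and 14.4 CPM in their controls (log2 fold change 0.95, SE 0.11, adjusted p = 1.96e-08). In both genes the groups are well apart. ZNF525, next to them, rose by 0.73 on the log2 scale, and ZNF845, at the other end of this run of 5, by 0.29. ZNF347 rose by 0.92, ZNF418 by 0.78, ZNF611 by 0.64 and ZNF772 by 0.62. The fitted rise of ZNF579 (1.54) rests on few counts, at 1.06, 2.17 and 1.40 CPM in FOXA1 knockdown libraries, against 0.647, 0.736 and 0.152 CPM in their controls, and was lost without knockdown replicate 2 (adjusted p = 0.0621). ZNF579 passed the filter on low counts only through its knockdown libraries, so its place among the rises depends partly on that filter. The rise of ZNF836 (0.84) was lost without knockdown replicate 3 (0.0747).

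The deepest falls were again in the middle blocks. ZNF581 stood at 13.35, 14.6 and 12.9 CPM in FOXA1 knockdown libraries, against 28.97, 29.2 and 28.03 CPM in their controls (log2 fold change -1.08, SE 0.10, adjusted p = 2.62e-10). ZNF444 stood at 20.1, 18.96 and 19.6 CPM in FOXA1 knockdown libraries, against 37.1, 35.9 and 38.7 CPM in their controls (log2 fold change -0.93, SE 0.09, adjusted p = 2.91e-10). ZNF787 stood at 28.02, 31.1 and 37.1 CPM in FOXA1 knockdown libraries, against 65.3, 59.5 and 53.2 CPM in their controls (log2 fold change -0.89, SE 0.09, adjusted p = 7.38e-08). None of these 3 overlaps its controls, and each is roughly halved. ZNF470 fell by 0.65 on the log2 scale, ZNF628 by 0.62, ZNF580 by 0.53 and ZNF667 by 0.45. The exons of ZNF580 and ZNF581 overlap on the same strand, so their counts are not independent. ZNF582 fell by 0.79 and ZNF524 by 0.48. ZNF582 no longer passed when control replicate 1, knockdown replicate 1 or knockdown replicate 3 was left out (adjusted p = 0.0847, 0.053 and 0.0995), nor did ZNF524 when control replicate 1 or knockdown replicate 2 was (0.116 and 0.0755). ZNF274 in the last block stood at 27.6, 32.3 and 35.05 CPM in FOXA1 knockdown libraries, against 42.1, 40.9 and 48.5 CPM in their controls (log2 fold change -0.47, SE 0.09, adjusted p = 6.04e-05). Its groups do not overlap. The rise of ZNF845 no longer passed without control replicate 1 or knockdown replicate 2, nor did the fall of ZNF583 without control replicate 1 or 3 or knockdown replicate 1 or 3. Of the 38 rises, 26 held without each library in turn, as did 9 of the 13 falls.

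**Figure D2:**
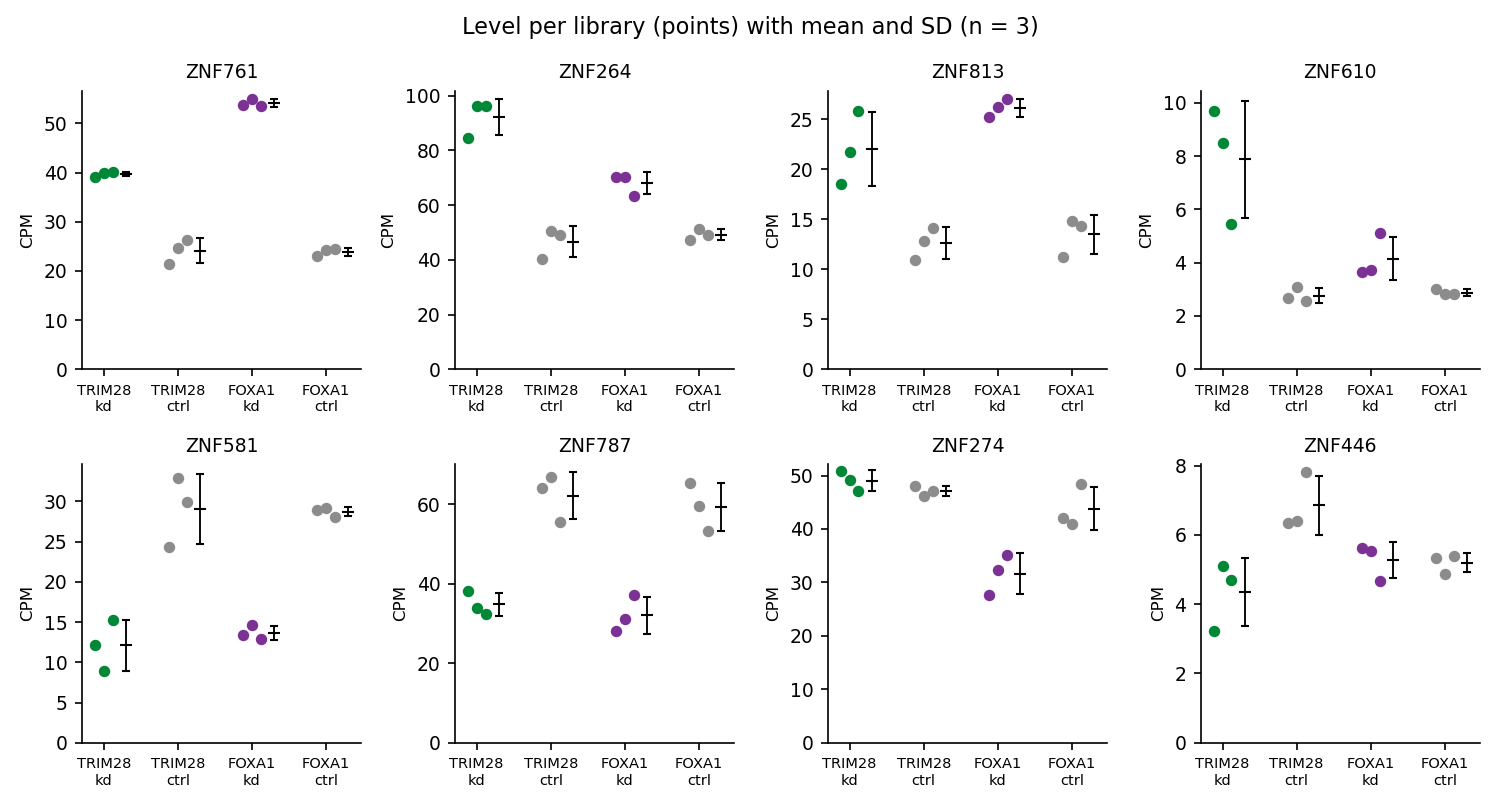
Level of 8 members in CPM (counts scaled to library size by TMM) in each library, knockdown left of its control for TRIM28 and then FOXA1. Coloured points are knockdown libraries, grey points controls, and bars give mean and SD (n = 3). ZNF761 and ZNF264 lie above their controls in both knockdowns, ZNF581 and ZNF787 below, and ZNF274 below only in the FOXA1 knockdown.

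Position along the chromosome ordered the changes in both knockdowns. In the first block 22 of 36 tested members rose and 0 fell in the TRIM28 knockdown (median log2 fold change 0.49), and 22 of 37 rose and 0 fell in the FOXA1 knockdown (0.34). In the second block 0 of 7 rose and 3 fell in the TRIM28 knockdown (-0.41), and 1 rose and 5 fell in the FOXA1 knockdown (-0.48). The 1 rise there was that of ZNF579, which passed the filter only through its knockdown libraries. In the third, 1 of 9 rose and 2 fell in the TRIM28 knockdown (0.09), and 2 rose and 6 fell in the FOXA1 knockdown (-0.45). In the last, 16 of 41 rose and 0 fell in the TRIM28 knockdown (0.47), and 13 rose and 2 fell in the FOXA1 knockdown (0.18). The 2 large blocks thus held nearly all rises, but also most of the tested members. The 2 small ones between them held most falls. With gaps of 500 kb the middle blocks merge into 16 genes, of which 1 rose and 5 fell in the TRIM28 knockdown and 3 rose and 11 fell in the FOXA1 knockdown. Without TRIM28 knockdown replicate 3, an alternative added after its values had been seen, the TRIM28 counts were 25 risen and 0 fallen in the first block, 0 and 3 in the second, 1 and 2 in the third, and 19 and 1 in the last.

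**Figure D3:**
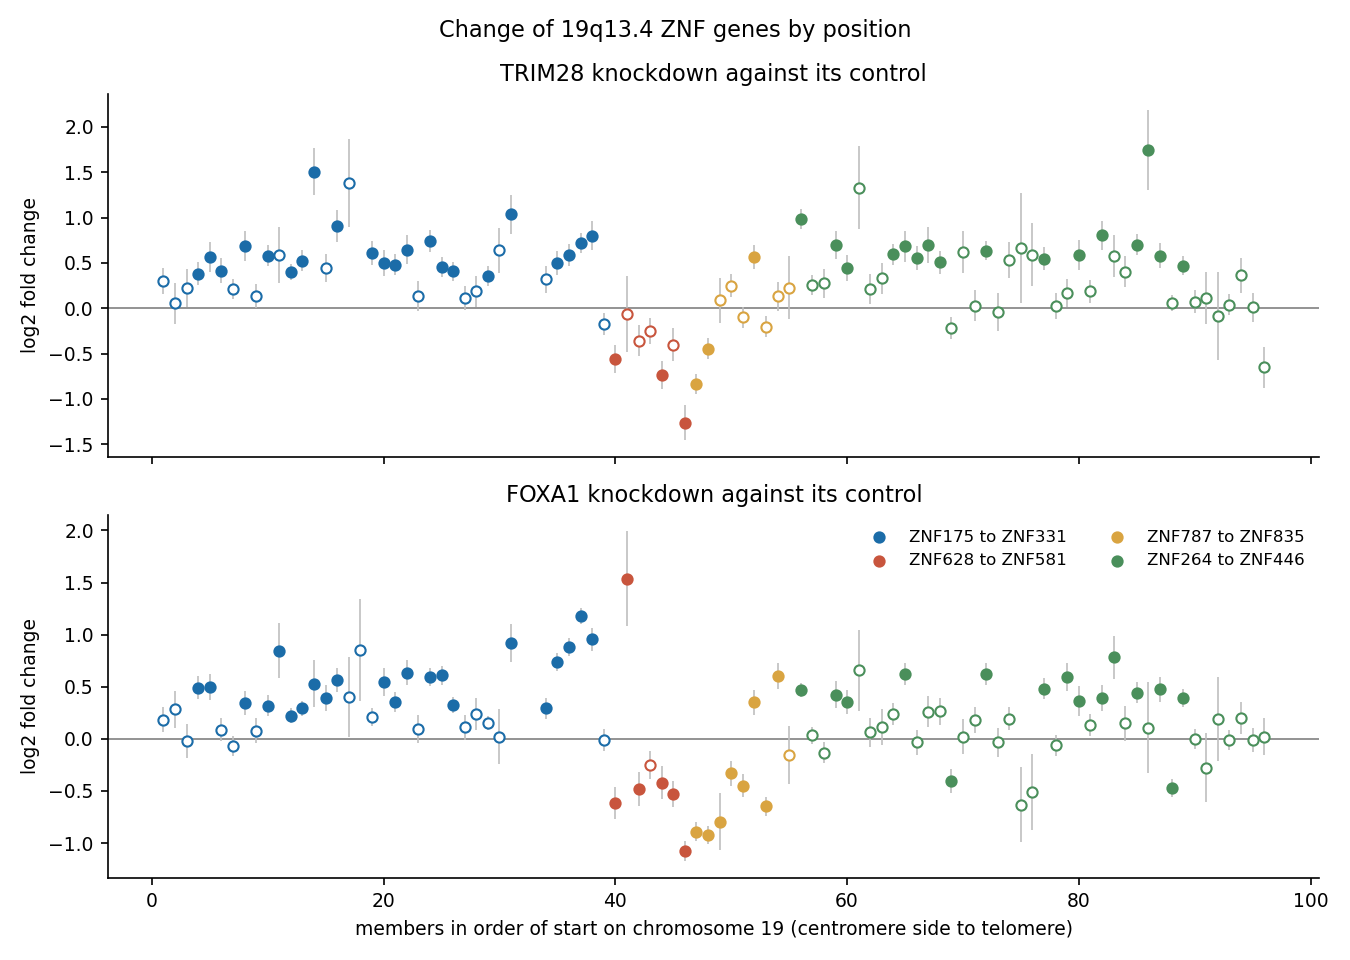
Fitted log2 fold change (knockdown against control, bars show the SE) of each tested member in chromosomal order, TRIM28 knockdown above and FOXA1 knockdown below. Filled points passed an adjusted p of 0.05, open points did not, and colours mark the blocks. Both panels dip at the 16 genes between the 2 large blocks.

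Summed levels weight the abundant members more than the medians do. All 96 members together made up 1898, 1967 and 2022 CPM in TRIM28 knockdown libraries, against 1560.4, 1590.0 and 1592 CPM in their controls. In the FOXA1 arm they made up 1665, 1689 and 1698 CPM in knockdown libraries, against 1466, 1491 and 1517 CPM in controls. Neither pair of groups overlaps. The first block summed to 911 ± 41.5 CPM in TRIM28 knockdown and 661 ± 10.4 CPM in its control, and to 823 ± 7.14 CPM in FOXA1 knockdown and 625 ± 19.1 CPM in its control (SD, n = 3 each). The second summed to 63.4 ± 3.22 CPM in TRIM28 knockdown and 98.4 ± 6.17 CPM in its control, and to 60.2 ± 3.24 CPM in FOXA1 knockdown and 90.5 ± 9.62 CPM in its control. The third summed to 176 ± 7.28 CPM in TRIM28 knockdown and 209.5 ± 7.90 CPM in its control, although its median log2 fold change there was 0.09, and to 138 ± 7.68 CPM in FOXA1 knockdown and 198 ± 5.57 CPM in its control. The last summed to 812 ± 35.5 CPM in TRIM28 knockdown and 612 ± 11.3 CPM in its control, and to 662 ± 3.56 CPM in FOXA1 knockdown and 577 ± 21.4 CPM in its control.

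KRAB status followed the same division. In the TRIM28 knockdown 36 of 78 tested members with the KRAB pattern rose and 0 fell, and of the 15 without it 3 rose and 5 fell. In the FOXA1 knockdown 34 of 79 with the pattern rose and 6 fell, and of the 15 without it 4 rose and 7 fell. The risen genes without the pattern were ZNF83, ZNF134 and ZNF329 in both knockdowns, and ZNF579 in the FOXA1 knockdown. ZNF579 was tested there only through its knockdown libraries. The 6 KRAB genes that fell in the FOXA1 knockdown were ZNF274, ZNF470, ZNF550, ZNF582, ZNF583 and ZNF667, 4 of them in the third block. Position, KRAB status and GC content overlap among these genes and are separated only in part. The 3 genes without the pattern and with a GC under 55%, ZNF83, ZNF134 and ZNF329, all lie in the large blocks. Among the 6 members of the third block with the pattern and a GC under 55%, 1 rose and 0 fell in the TRIM28 knockdown. In the FOXA1 knockdown 2 of the 6 rose and 4 fell. Of such members in the first block 21 of 35 rose in the TRIM28 knockdown and 21 of 36 in the FOXA1 knockdown, and 0 fell in either. In the last block 14 of 35 rose and 0 fell in the TRIM28 knockdown, and 11 rose and 2 fell in the FOXA1 knockdown. In the second block all 7 genes lack the pattern and have a GC of 55% or more, so there these features cannot be told apart. Among 14 tested members with a transcript GC of 55% or more, 0 rose and 5 fell in the TRIM28 knockdown. In the FOXA1 knockdown 1 of them, ZNF579, rose and 7 fell. Over all tested genes with a GC of 60% or more the median log2 fold change was -0.13 in the TRIM28 knockdown and 0.04 in the FOXA1 knockdown, and for the 9 members in that range it was -0.36 and -0.42. Below 45% GC it was 0.05 and -0.06 over all genes, and 0.51 and 0.31 over 52 members. The part of GC content in the result was not tested. Of the 43 members with no exon overlap to another gene, 15 rose and 3 fell in the TRIM28 knockdown, and 18 rose and 6 fell in the FOXA1 knockdown.

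Many members were called in both knockdowns, as were many of all genes tested. Of 93 members tested in both, 31 rose in both, which is 79.5% of those that rose in the TRIM28 knockdown and 81.6% of those that rose in the FOXA1 knockdown. All 5 that fell in the TRIM28 knockdown also fell in the FOXA1 knockdown, where they are 38.5% of the falls. No member was called in opposite directions, and 34 were called in neither. Over all 14498 genes tested in both, 72.9% of the genes that rose in the TRIM28 knockdown also rose in the FOXA1 knockdown, and these were 37.9% of the genes that rose there. For falls the shares over all genes were 73.2% and 37.3%. The 79.5% and 38.5% of the members are thus near the background, and the 81.6% is above it, with no test of that difference. In all, 128 genes had opposite calls. The log2 fold changes had the same sign for 75 of the 93 members (80.6%), against 73.4% of all genes. Without TRIM28 knockdown replicate 3, 33 members rose in both and 5 fell in both. Members with the largest changes in both were ZNF581 (-1.26 in TRIM28 knockdown, -1.08 in FOXA1 knockdown), ZNF347 (1.03 and 0.92), ZNF787 (-0.84 and -0.89), ZNF813 (0.80 and 0.95), ZNF761 (0.72 and 1.18) and ZNF611 (0.65 and 0.64).

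**Figure D4:**
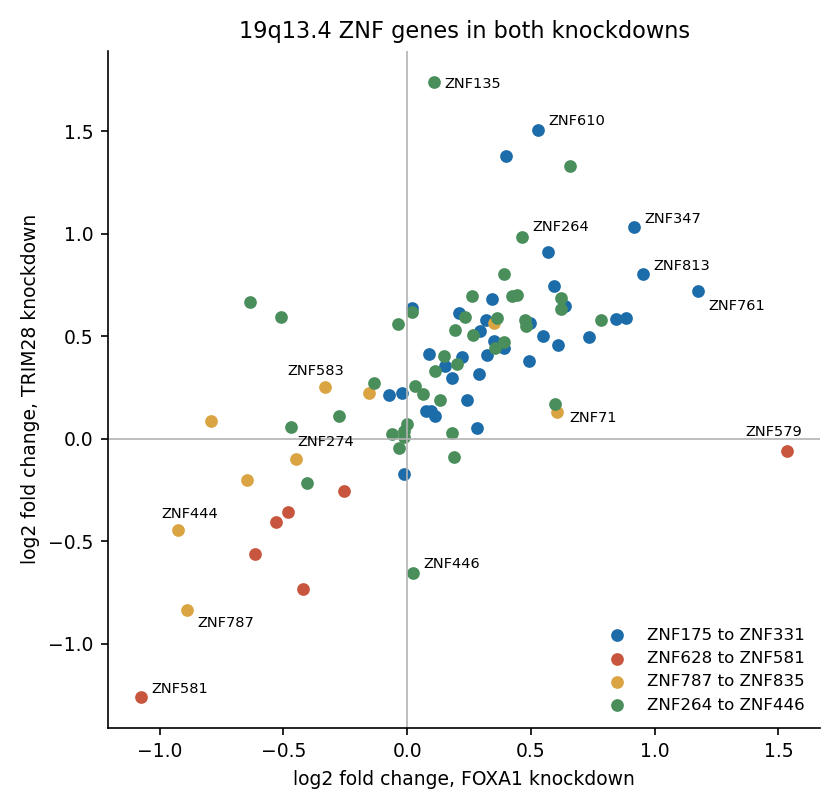
Log2 fold change of the 93 members tested in both knockdowns, FOXA1 knockdown on the horizontal axis and TRIM28 knockdown on the vertical axis, coloured by block. 62 genes lie in the upper right quadrant and 13 in the lower left.

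A few members differed between the knockdowns when the difference itself was tested over all 12 libraries. The change was more positive in the TRIM28 knockdown for 6 of 94 members and more positive in the FOXA1 knockdown for 1, where 10.6% of all 15921 tested genes differed, 4.59% and 5.98% in these directions. ZNF264 rose in both and by more in the TRIM28 knockdown, with log2 fold changes of 0.98 in TRIM28 knockdown and 0.47 in FOXA1 knockdown (difference 0.51, SE 0.13, adjusted p = 0.0144). In the FOXA1 arm it stood at 70.4, 70.1 and 63.5 CPM in FOXA1 knockdown libraries, against 47.2, 51.3 and 49.1 CPM in their controls. ZNF761 was the 1 that rose by more in the FOXA1 knockdown (difference -0.47, SE 0.12, adjusted p = 0.019). ZNF274 fell in the FOXA1 knockdown and stood at 50.9, 49.2 and 47.1 CPM in TRIM28 knockdown libraries, against 48.1, 46.3 and 47.2 CPM in their controls (difference 0.52, SE 0.13, adjusted p = 0.0191). In the TRIM28 arm its groups overlap. ZNF583 differed by 0.57 (SE 0.16, adjusted p = 0.0304), having fallen in the FOXA1 knockdown only. ZNF71 (difference -0.49, adjusted p = 0.0991) and ZNF446 (-0.69, adjusted p = 0.131) had the next smallest p in the other direction and did not pass. None of the 7 differences held when each library in turn was left out. That of ZNF264 failed without FOXA1 knockdown replicate 3, that of ZNF761 without FOXA1 control replicate 1 or TRIM28 control replicate 3, and those of ZNF274, ZNF583, ZNF419, ZNF444 and ZNF470 without 4, 8, 8, 9 and 10 of the 12 libraries.

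TRIM28 itself lies at the end of the same chromosome arm (chr19:58544064-58550722), beyond the last member. The 3 nearest members were not called in either knockdown. ZNF446, whose start is 70.0 kb away, stood at 3.24, 5.11 and 4.71 CPM in TRIM28 knockdown libraries, against 6.34, 6.39 and 7.82 CPM in their controls (log2 fold change -0.65, SE 0.23, adjusted p = 0.0579). Its knockdown libraries all lie below the controls although the test did not pass. In the FOXA1 arm it stood at 5.62, 5.52 and 4.68 CPM in FOXA1 knockdown libraries, against 5.32, 4.88 and 5.39 CPM in their controls, where the groups overlap. ZNF324 had log2 fold changes of 0.01 in TRIM28 knockdown and -0.01 in FOXA1 knockdown, and ZNF132 of 0.36 and 0.20. An exon of ZNF446 overlaps SLC27A5 on the other strand.

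Many of the clusters' promoters carry a letter pattern that was not used to choose the genes. A RefSeq promoter, from 250 bases before to 50 after the start (GRCh38.p14), matched 84 of the 96 members. The 7 letters CCGGAAG, the core bound by ETS-family factors, occurred on either strand in 51 of these 84 promoters (60.7%). In the 4 blocks in chromosomal order the letters occurred in 20 of 32, 3 of 6, 3 of 8 and 25 of 38 promoters. They occurred in 10.7% of all 27305 promoters, 14.2% of 15843 protein-coding ones, 33.3% of 126 promoters of ZNF genes elsewhere on chromosome 19, 37.3% of 193 promoters of ZNF genes on other chromosomes and 19.1% of 131 promoters of other genes in the interval. The letters TGTTTAC, the core of the forkhead motif read by FOXA proteins, occurred in 1 of the 84 (1.19%), against 3.41% of all promoters, 0.794% of those of ZNF genes elsewhere on chromosome 19, 1.55% of those of ZNF genes on other chromosomes and 0 of the 131 of other genes in the interval. 3 promoters with the ETS letters are printed, of a gene that rose in both knockdowns from each large block and of a gene that fell in both, with the matches in capitals, 5′ to 3′ on the gene's strand.
ZNF765 (chr19:53394899-53395198, plus strand): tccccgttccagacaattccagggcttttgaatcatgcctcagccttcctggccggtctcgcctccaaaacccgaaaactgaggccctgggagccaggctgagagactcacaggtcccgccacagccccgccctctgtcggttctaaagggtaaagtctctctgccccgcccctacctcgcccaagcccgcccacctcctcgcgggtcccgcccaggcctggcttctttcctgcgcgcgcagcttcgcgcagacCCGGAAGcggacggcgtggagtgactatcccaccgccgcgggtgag
ZNF264 (chr19:57191250-57191549, plus strand): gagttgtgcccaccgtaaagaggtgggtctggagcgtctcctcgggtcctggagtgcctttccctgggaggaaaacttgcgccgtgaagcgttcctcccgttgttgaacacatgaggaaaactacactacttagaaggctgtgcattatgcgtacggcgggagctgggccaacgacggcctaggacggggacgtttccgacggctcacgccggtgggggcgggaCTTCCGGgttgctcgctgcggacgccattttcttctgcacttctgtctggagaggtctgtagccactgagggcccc
ZNF787 (chr19:56121246-56121545, minus strand): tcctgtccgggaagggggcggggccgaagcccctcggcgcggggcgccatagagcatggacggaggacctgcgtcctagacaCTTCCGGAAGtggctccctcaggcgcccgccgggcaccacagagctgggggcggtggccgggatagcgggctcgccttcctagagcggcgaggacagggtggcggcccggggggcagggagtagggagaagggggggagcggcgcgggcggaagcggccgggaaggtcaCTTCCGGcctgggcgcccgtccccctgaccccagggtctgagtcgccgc
ZNF765 and ZNF264 carry 1 match each, and ZNF787 carries 3, of which a pair overlap on opposite strands. Of the 49 tested members with them 21 rose and 1 fell in the TRIM28 knockdown, and of the 33 without them 13 rose and 4 fell. In the FOXA1 knockdown 19 of 50 with the letters rose and 6 fell, and 13 of 33 without them rose and 6 fell.

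Genes of the repression pathway that KRAB proteins feed into were called in both directions. The list of 39 genes includes TRIM28 itself. Of 38 tested, 2 rose and 9 fell in the TRIM28 knockdown, and 11 rose and 10 fell in the FOXA1 knockdown. In the FOXA1 knockdown these shares (28.9% and 26.3%) are near those of all tested genes (26.1% and 26.3%), and in the TRIM28 knockdown they are 5.26% and 23.7%, against 13.3% of all genes in each direction, with no test of that difference. SETDB1, the methyltransferase that TRIM28 recruits, was at a mean of 35.5 CPM in TRIM28 knockdown and 47.6 CPM in its control (log2 fold change -0.42, adjusted p = 0.0103), and at 28.7 CPM in FOXA1 knockdown and 49.8 CPM in its control (-0.80, adjusted p = 5.9e-10). In the TRIM28 knockdown it no longer passed when control replicate 1 was left out (adjusted p = 0.0501). H3-3B, a histone H3.3 gene, rose in both (0.50 in TRIM28 knockdown and 0.46 in FOXA1 knockdown). RESF1, a partner of SETDB1, also rose in both (0.42 in TRIM28 knockdown and 0.76 in FOXA1 knockdown), though its rise in the TRIM28 knockdown no longer passed without control replicate 1, control replicate 2 or knockdown replicate 2. H3-3A rose in the FOXA1 knockdown (0.68) and had a value of 0.27 in the TRIM28 knockdown (adjusted p = 0.124). MTA1, a subunit of the NuRD complex, fell by 0.48 on the log2 scale in the TRIM28 knockdown and by 0.57 in the FOXA1 knockdown. SUMO3, whose protein modifies TRIM28, fell by 0.51 in the TRIM28 knockdown and by 0.20 in the FOXA1 knockdown, where the call was lost without control replicate 3, knockdown replicate 1 or knockdown replicate 2.

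Other gene groups give the scale of these changes. ZNF genes elsewhere on chromosome 19 counted 30 risen and 2 fallen of 117 tested in the TRIM28 knockdown (median log2 fold change 0.26), and 25 risen and 14 fallen of 119 in the FOXA1 knockdown (0.04). ZNF genes on other chromosomes counted 36 risen and 9 fallen of 201 in the TRIM28 knockdown (0.14), and 49 risen and 41 fallen of 201 in the FOXA1 knockdown (0.04). Other genes of the same interval counted 7 risen and 21 fallen of 94 in the TRIM28 knockdown, and 15 risen and 22 fallen of 88 in the FOXA1 knockdown. The difference between these groups and the members was not tested. Among 14 zinc finger genes of the interval with other names, PEG3, an imprinted gene, averaged 5.32 CPM in TRIM28 knockdown and 9.81 CPM in its control (log2 fold change -0.88, adjusted p = 0.0082). In the FOXA1 arm PEG3 averaged 3.70 CPM in knockdown and 9.85 CPM in control (-1.42, adjusted p = 7.67e-08). These were the lowest log2 fold changes of the list in each knockdown, so PEG3 does not stand for the list. ZIK1 of the same list rose in the FOXA1 knockdown (0.56), a call lost without control replicate 2 or knockdown replicate 3. In the TRIM28 knockdown ZIK1 was not called (0.53).

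**Figure D5:**
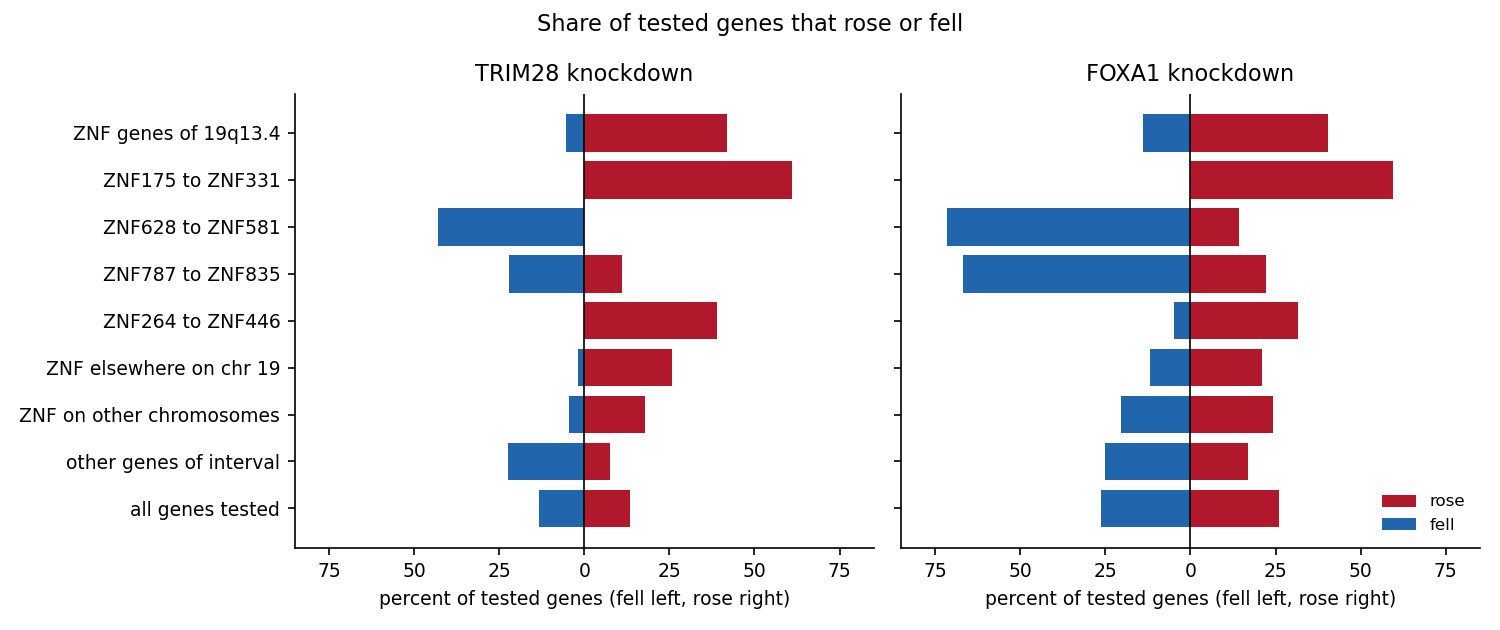
Share of tested genes (percent) that rose (right, red) or fell (left, blue) at an adjusted p of 0.05, TRIM28 knockdown on the left and FOXA1 knockdown on the right, for the members, their 4 blocks and 4 other gene groups. In the first block 22 genes rose and 0 fell in each knockdown.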

How the data were processed

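The values deposited by the authors are whole read counts by gene symbol, in a table for each knockdown, and FPKM for the 12 libraries together. Reads were mapped to GRCh38, also listed as hg38, according to the submitters' processing notes; the sources used here do not give the aligner, counter, strand setting or annotation. Each symbol entered once (60835 symbols on 62710 lines).

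Each knockdown and its control (6 libraries) were fitted with edgeR 4.0.16 in R 4.3.3 with limma 3.58.1. Scaling was by TMM, genes were filtered with filterByExpr (count of at least 10, total of at least 15), and two-sided quasi-likelihood tests with robust dispersion were adjusted by Benjamini-Hochberg over all genes tested, with a threshold of 0.05. A contrast over 12 libraries tested the difference between knockdowns. CPM values are TMM-scaled. A gene low in controls passed the filter only when high in the knockdown. The fits were tested on simulated counts. Alternatives were DESeq2 1.42.0, other scalings, no filter, a minimum fold of 1.2, a replicate block and leaving out each library.

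Named members were the 10 largest rises and 10 largest falls per knockdown among called genes with at least 1 CPM, the 6 highest FPKM, 3 per direction with the smallest p for the difference, the 3 nearest TRIM28, the 6 with the largest change in both and 4 pathway genes. ZNF808, ZNF350, ZNF845, PEG3, ZIK1 and genes named as exceptions were chosen after their values were seen. Members and lists were chosen with earlier results of these data known. Replicate numbers did not pair libraries: correlations of same-numbered deviations ran from -0.08 to 0.10. Fingers, KRAB pattern, linkers and GC came from GENCODE 29 transcripts, promoters from RefSeq. The KRAB pattern needed a tryptophan and a glutamine with 6 residues between them. The result of a list of other genes near TRIM28 is not reported here.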

Additional observations from a re-analysis of the deposited data

Results flagged for a closer look

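For 7 members the change differed between the knockdowns by a test of the difference itself over all 12 libraries (edgeR, Benjamini-Hochberg adjusted over 15921 genes). These are 7 of 94 members tested, where 10.6% of all genes differed, and none of the 7 held when each library in turn was left out. As the log2 change in TRIM28 knockdown minus that in FOXA1 knockdown, the difference was 0.51 for ZNF264, 0.52 for ZNF274, 0.57 for ZNF583, 0.58 for ZNF419, 0.47 for ZNF444, 0.44 for ZNF470 and -0.47 for ZNF761. ZNF419 rose in the TRIM28 knockdown (0.56) and had a value of -0.04 in the FOXA1 knockdown. ZNF444 fell in both, by 0.45 in the TRIM28 knockdown and by 0.93 in the FOXA1 knockdown. ZNF470 had a value of -0.20 in the TRIM28 knockdown and fell by 0.65 in the FOXA1 knockdown. The adjusted p of ZNF470 was 0.0499.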

How the results depend on the processing

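Against a minimum fold change of 1.2, 16 members rose and 3 fell in the TRIM28 knockdown, and 0 differed between the knockdowns in either direction. In the FOXA1 knockdown 23 rose at that minimum, and the falls there are not listed. Leaving out 1 library at a time gave 17 to 45 risen and 3 to 6 fallen members in the TRIM28 knockdown, 33 to 37 risen and 9 to 13 fallen in the FOXA1 knockdown, and 1 to 9 and 0 to 2 members more positive in TRIM28 and in FOXA1 knockdown. With no filter on low counts, 2 members were more positive in the TRIM28 knockdown. With a replicate block, 37 rose and 5 fell in the TRIM28 knockdown, 38 rose and 13 fell in the FOXA1 knockdown, and 5 and 1 differed. DESeq2 called 35 risen and 5 fallen in the TRIM28 knockdown, and 30 and 9 in the FOXA1 knockdown.

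ZNF324, which was not called, changed sign: 0.0026 in the FOXA1 knockdown with library size only, -0.0369 to 0.0281 there and -0.102 to 0.0921 in the TRIM28 knockdown without single libraries. ZNF446 ran from -0.0212 to 0.11 in the FOXA1 knockdown. The cause was not tested. Depth limits the tests to genes with roughly 10 counts or more in 3 libraries.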
